A study of Sus scrofa with 5 samples.

Results

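The red cell miRNAs ssc-miR-451, ssc-miR-144, ssc-miR-486 and ssc-miR-185 of the pig (prefix left out below) were followed across exosomes of serum, plasma, semen, urine and bile. They were taken by name, 4 of the 411 mature miRNA names that the authors' tables list, as miRNAs of the erythroid lineage, and the rule that picks them uses no measured value. Exosomes are the small membrane vesicles that cells release into body fluids. The fluids came from pigs of the Chinese Rongchang breed, 180 days after birth and with no treatment named, and each gave 1 small RNA library. Vesicles were collected with a commercial reagent, and the labels describe no step that checks for lysed red cells. The number of animals behind each library is not stated in the labels.

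Red cell precursors make miR-451 and miR-144 from a shared transcript under the erythroid factor GATA1. The hairpin of miR-451 is too short for Dicer and is cut by the slicer AGO2, whereas miR-144 takes the usual Dicer route. miR-486 lies within ANK1, the gene of the ankyrin that anchors the red cell membrane skeleton. It is known in erythroid cells and in muscle. miR-185 is abundant in red cells too, but it is made in many other tissues. In the RefSeq table of assembly Sscrofa11.1, used here for gene order only, MIR451 and MIR144 are neighbouring entries within the span of ERAL1. MIR486-1 lies within ANK1 there and MIR185 within TANGO2. The mature sequences were not used here.

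The libraries held 26522 (urine) to 2284926 (semen) listed miRNA counts, with 473168 in serum, 1153755 in plasma and 1673239 in bile. Levels are given as a share of these counts, in percent or as CPM (counts per 1000000 listed miRNA counts). Brackets hold 95% intervals, exact Clopper-Pearson for shares and exact conditional binomial for ratios. They cover counting error only. With 1 library per fluid no test between fluids was possible and no p-value is given. Every deposited count is 0 or at least 10, so a listed 0 stands for fewer than 10 reads, and ratios against it were computed with 10 counts. In plasma 3 miRNAs (miR-378, miR-320 and miR-423-5p) took 83.9% of the counts, against 0.245% to 3.86% in the other libraries, which lowers every other share there. Known markers followed the labels in part. miR-122 and miR-192, liver miRNAs, were highest in bile with 91481 and 229971 counts. miR-194b-5p, of the same liver list, was higher in serum, at 76.1 CPM, than in bile, at 38.8 CPM. miR-34c, of male germ cells, was listed in semen alone with 604 counts. miR-30a-5p, of kidney epithelium among others, was the most abundant miRNA of urine with 5855 counts. The summed kidney list was highest in urine by CPM, but in bile relative to the authors' own, larger library totals.

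The members took a larger share of serum than of any other library. Together they had 50369 counts in serum, 10.6% of the library (10.6 to 10.7), and 9285 in plasma, 0.805% (0.789 to 0.821). Bile held 9128 counts, 0.546% (0.534 to 0.557), urine 124 counts, 0.468% (0.389 to 0.557), and semen 823 counts, 0.0360% (0.0336 to 0.0386). With miR-378, miR-320 and miR-423-5p left out of the totals, the share was 11.07% in serum and 4.997% in plasma. The serum share lay above all others, and bile and urine overlapped in their intervals. All 4 members were listed above 0 in serum, plasma and bile, 2 in semen (miR-185 and miR-486) and 1 in urine (miR-451).

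**Figure D1:**
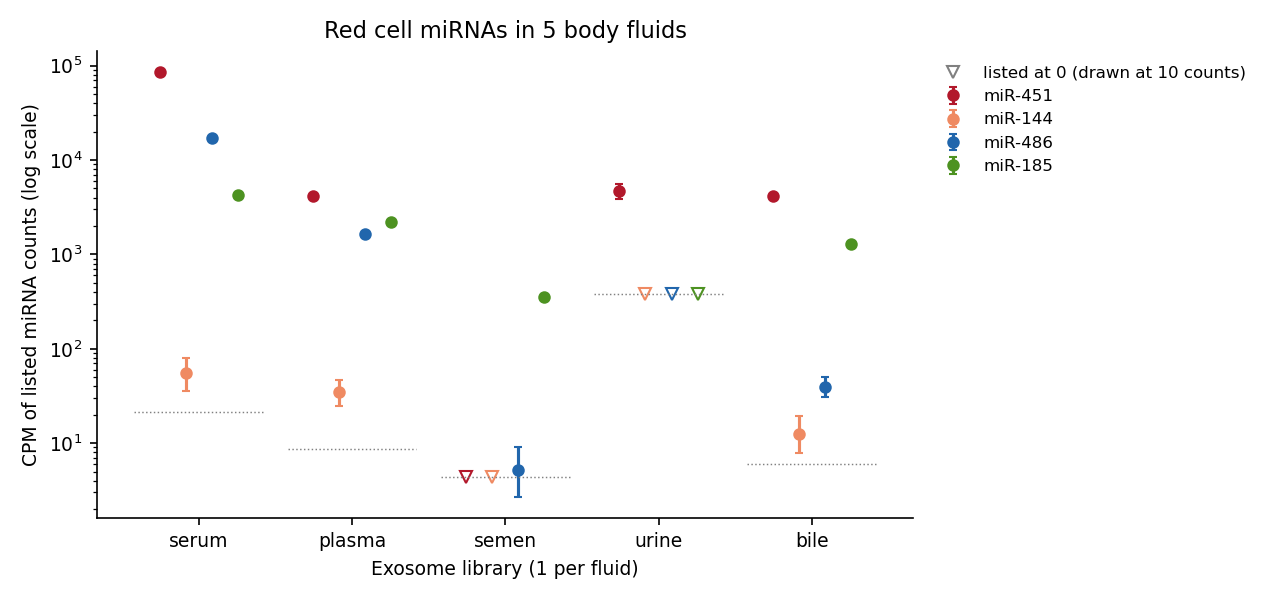
Level of each red cell miRNA (CPM of listed miRNA counts, log scale) in the exosome library of each fluid. Filled points are 1 library with the 95% counting interval, open triangles are names listed at 0 drawn at 10 counts, and dotted lines mark 10 counts in that library. In serum miR-451 stood at 84805 CPM, and in semen it was listed at 0.

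miR-451, the most specific red cell miRNA of the set, had 40127 counts in serum, 6896 in bile, 4775 in plasma, 124 in urine and 0 in semen. It ranked second of the 180 miRNAs above 0 in serum, behind miR-148a-3p, and took 8.48% of that library (8.40 to 8.56). Its rank was 12 of 161 in plasma, 24 of 84 in urine and 22 of 179 in bile. The shares in these 3 fluids were close to each other: 0.468% in urine (0.389 to 0.557), 0.414% in plasma (0.402 to 0.426) and 0.412% in bile (0.402 to 0.422). The level in plasma was 1.004 times that in bile (0.968 to 1.04) and that in urine 1.13 times plasma (0.937 to 1.35), so by CPM these neighbours did not differ beyond counting error. This closeness depended on the scaling: plasma was 5.21 times bile with TMM, 6.66 times with DESeq2 size factors and 6.22 times without miR-378, miR-320 and miR-423-5p in the totals, but 1.014 times on the authors' RPM (reads per 1000000 of their own, larger library total). Plasma over urine was 9.93, 7.32, 5.42 and 57.7 times in the same order. Serum stood 20.5 times above plasma (19.9 to 21.1), 18.1 times above urine (15.2 to 21.8) and 20.6 times above bile (20.1 to 21.1). Semen, the deepest library, listed none, and serum was at least 19377-fold higher when its 0 is taken as 10 counts (counting interval from 10536).

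miR-144, the transcript partner of miR-451, was scarce everywhere. It had 26 counts in serum, 40 in plasma and 21 in bile, and was listed at 0 in semen and urine. These are 54.9 CPM in serum (35.9 to 80.5), 34.7 CPM in plasma (24.8 to 47.2) and 12.6 CPM in bile (7.77 to 19.2). Serum and plasma overlapped, at 1.58 times (0.929 to 2.66), and serum was 4.38 times bile (2.37 to 8.18). The ratio to bile depended on the scaling, at 2.30 times with TMM and 1.23 times on the authors' RPM. The urine library could not have shown such levels, since 10 counts are 377 CPM there. The files do not say which arm of the hairpin the name stands for.

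miR-486 had 8179 counts in serum and 1909 in plasma, but 66 in bile, 12 in semen and 0 in urine. The blood libraries were high, and bile and semen were low. The listed 0 of urine lies under 377 CPM, below the blood libraries by CPM but not resolved from bile or semen. It was miRNA number 16 by rank in serum with 1.73% of the counts (1.69 to 1.77) and number 24 in plasma with 0.165% (0.158 to 0.173). In bile it stood at 39.4 CPM (30.5 to 50.2), and in semen it was number 165 of 174 at 5.25 CPM (2.71 to 9.17). Serum stood 10.4 times above plasma (9.94 to 11.0), 438 times above bile (344 to 567) and 3291 times above semen (1883 to 6372). Plasma in turn stood 41.9 times above bile (32.8 to 54.5), or 218 times by TMM and 278 times by DESeq2 scaling.

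miR-185 had counts of the same order in serum, plasma and bile. Its counts were 2561 in plasma, 2145 in bile, 2037 in serum, 811 in semen and 0 in urine. The levels were 4305 CPM in serum (4120 to 4496), 2220 in plasma (2135 to 2307), 1282 in bile (1228 to 1337) and 355 in semen (331 to 380), and no interval overlapped another. The listed 0 of urine lies under 377 CPM, which does not resolve it from semen. The serum level was 1.94 times plasma (1.83 to 2.06), 3.36 times bile (3.16 to 3.57) and 12.1 times semen (11.2 to 13.2). This is the only member with an appreciable count in semen.

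The make-up of the set therefore changed from fluid to fluid. In serum miR-451 made up 79.7% of the counts of the 4 miRNAs (79.3 to 80.0), miR-486 16.2% (15.9 to 16.6) and miR-185 4.04% (3.87 to 4.22). In plasma miR-451 was 51.4% of the set (50.4 to 52.4), with miR-185 at 27.6% (26.7 to 28.5) and miR-486 at 20.6% (19.7 to 21.4). In bile miR-451 made up 75.5% (74.7 to 76.4) and miR-185 23.5% (22.6 to 24.4), and miR-486 only 0.723% (0.560 to 0.919). In semen miR-185 alone made up 98.5% (97.5 to 99.2), from 823 counts in all. The 124 counts in urine were all of miR-451.

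**Figure D2:**
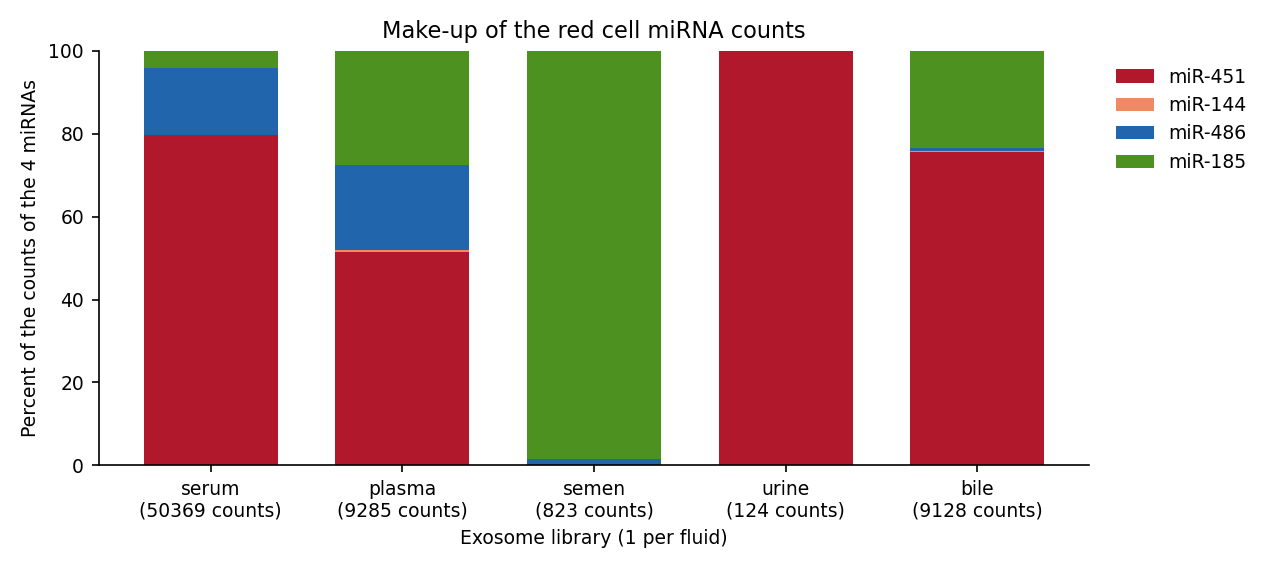
Percent of the summed counts of the 4 red cell miRNAs that each of them took in each library, with the summed counts under the bars. miR-451 made up 79.7% in serum, 51.4% in plasma and 75.5% in bile, and miR-185 made up 98.5% in semen.

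A ratio of counts of 2 miRNAs in the same library does not depend on how the library is scaled, so it is untouched by the miRNAs that fill the plasma library. Ligation and amplification favour some sequences over others, so such a ratio is no ratio of copies, but it can be set beside the same ratio in another library. miR-451 exceeded miR-486 by 4.91 times in serum (4.79 to 5.02), 2.501 times in plasma (2.37 to 2.64) and 104 times in bile (82.0 to 135). The bile ratio was 21.3 times the serum ratio, and the intervals were far apart. In urine miR-451 was at least 12.4 times miR-486 (interval from 6.52). In semen, where miR-486 had 12 counts, the 0 of miR-451 allows at most 0.83 times (interval to 2.10), so their order there is not resolved.

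Against miR-185 the order of the fluids was another one. miR-451 was 19.7 times miR-185 in serum (18.8 to 20.6), 3.21 times in bile (3.06 to 3.38) and 1.86 times in plasma (1.78 to 1.96). Serum and plasma, the fluids of the blood, thus differed 10.6-fold in this ratio. In semen the relation was turned around, with miR-185 at least 81.1 times miR-451 (interval from 43.9). miR-486 was 4.02 times miR-185 in serum (3.82 to 4.22), 0.75 times in plasma (0.70 to 0.79), 0.031 times in bile (0.024 to 0.039) and 0.015 times in semen (0.0076 to 0.026). The intervals of bile and semen overlapped and the other fluids were apart.

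The transcript partners did not keep a common ratio. miR-451 was 1543 times miR-144 in serum (1053 to 2363), 328 times in bile (215 to 531) and 119 times in plasma (87.5 to 167), and none of these intervals overlapped. The serum ratio was 12.9 times that of plasma. By contrast, miR-185 was 78.3 times miR-144 in serum (53.3 to 120), 64.0 times in plasma (46.9 to 89.8) and 102 times in bile (66.6 to 165), and these intervals all overlapped. At 21 to 40 counts of miR-144 a change of this ratio by less than about the width of these intervals was not detectable.

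**Figure D3:**
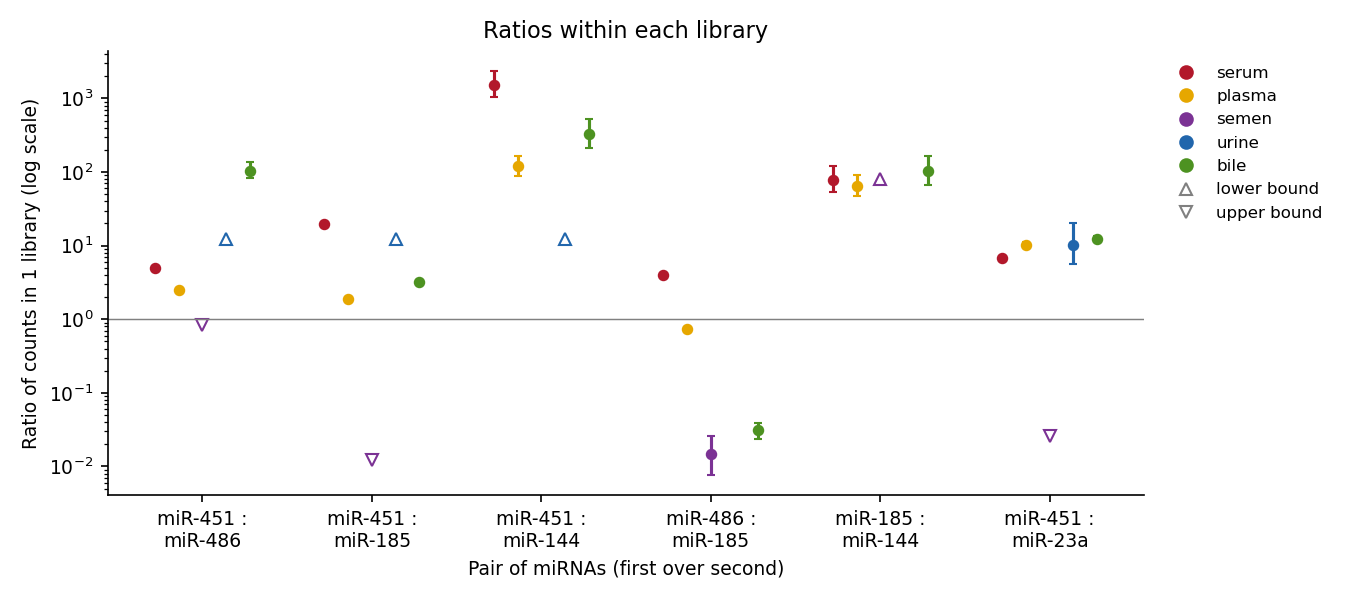
Ratios of counts of 2 miRNAs within each library (log scale), by fluid, with 95% counting intervals; triangles are bounds where 1 of the names was listed at 0, which was taken as 10 counts. miR-451 over miR-486 was 104 in bile against 4.91 in serum, whereas miR-185 over miR-144 lay between 64.0 and 102 in serum, plasma and bile.

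The ratio of miR-451 to miR-23a is in use as an index of red cell content in serum and plasma, because lysis of red cells changes miR-23a little. Serum, with the highest share of miR-451, did not have the highest ratio. It was 12.4 in bile (11.4 to 13.6), 10.1 in plasma (9.22 to 11.2) and 6.81 in serum (6.63 to 7.0), and 10.3 in urine (5.71 to 20.5, from 12 counts of miR-23a). The plasma ratio was 1.49 times and the bile ratio 1.82 times that of serum, with no overlap, while the urine interval overlapped all 3. In semen miR-23a had 385 counts, and the 0 of miR-451 allows at most 0.026 (interval to 0.048). miR-23a itself had 5892 counts in serum, 471 in plasma and 555 in bile. By CPM its log2 ratio was 4.93 for serum over plasma and 5.23 for serum over bile. That of miR-451 was 4.36 in both comparisons, so miR-23a differed more between these fluids than miR-451 did. Which fluid held more red cell material was not tested. For miR-486 over miR-23a the values were 1.39 in serum (1.34 to 1.44), 4.05 in plasma (3.66 to 4.49) and 0.12 in bile (0.091 to 0.15). Bile was thus higher than serum and plasma by the first index and lower than these fluids by the second.

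The members were then set among all miRNAs. Between serum and plasma 119 miRNAs had at least 100 counts in either library, and 73.1% of them were at least 2-fold higher in serum. miR-451, miR-486 and miR-185 were among the 119, and 2 of these 3, miR-451 and miR-486, were 2-fold higher in serum, a share near that of all miRNAs. By size of the ratio miR-451 ranked 34, miR-486 50 and miR-185 88 of 119. Their median log2 ratio was 3.39, against 2.76 over all 119. Relative to the median of the 109 miRNAs above 0 in both libraries, miR-451 was 2.99-fold towards serum, miR-486 1.53-fold towards serum and miR-185 3.53-fold towards plasma.

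Against semen and bile, members that met the minimum of 100 counts through serum alone had to be higher in serum. Against urine this fixed no direction, since 10 counts are 377 CPM there. miR-24-1-5p and miR-155-5p met the minimum through serum alone and had log2 ratios of serum over urine of -0.63 and -0.78. The urine values of miR-486 and miR-185 are listed zeros, however. No count or median over the members is therefore read against these fluids. Between serum and bile 53.6% of 138 miRNAs were at least 2-fold higher in serum. miR-451 and miR-185 met the minimum in either fluid, were 2-fold higher in serum and ranked 22 and 59 of 138 by ratio. miR-486, which met it through serum alone, had the highest ratio of the 138. Between serum and semen 51.1% of 141 miRNAs were 2-fold higher in serum. miR-185, which met the minimum in either fluid, was so too and ranked 45, and miR-451 and miR-486 met it through serum alone. Between serum and urine 38.1% of 105 miRNAs were 2-fold higher in serum. miR-451, with 124 counts in urine, was so too and ranked 7, and miR-486 and miR-185 met the minimum through serum alone. miR-144 met it in no comparison.

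**Figure D4:**
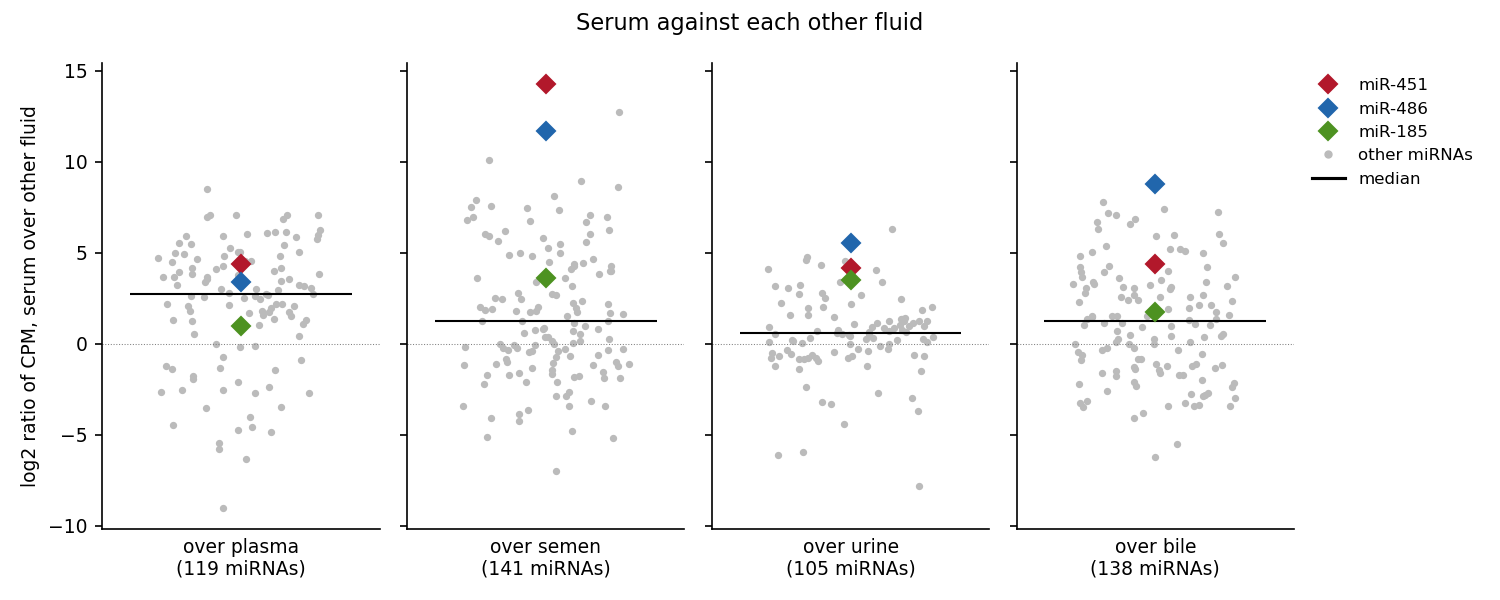
log2 ratio of CPM in serum over each other fluid for all miRNAs with at least 100 counts in either library (grey points, spread sideways at random; black line, median), with miR-451, miR-486 and miR-185 as diamonds; counts listed at 0 were taken as 10. Against bile miR-486 was the highest of 138 points, but it met the minimum through serum alone and therefore had to be higher there. Against plasma the diamonds lay on both sides of the median.

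The comparison with plasma depended on the scaling. With TMM library sizes (edgeR) or DESeq2 size factors, both of which raise plasma, the median log2 ratio of serum over plasma moved from 2.77 to -0.53 and -0.57, and 34 miRNAs were 2-fold higher in serum and 52 lower, in place of 87 and 24. miR-451 was then 2.07 and 2.01 times its plasma level and miR-486 1.06 and 1.03 times. miR-185 turned to 0.20 and 0.19 times and miR-144 to 0.16 times under both, so that they were higher in plasma. On the authors' RPM miR-451 was at 3788 in serum, at 662 and 653 in plasma and bile, and at 11.5 in urine, and miR-185 at 355 in plasma, 203 in bile, 192.3 in serum and 75.1 in semen. Serum held the most miR-451 under all 6 scalings. miR-486 was level between serum and plasma with DESeq2 size factors and near level with TMM, and higher in serum under the other 4. miR-185 and miR-144 changed direction between scalings. The order miR-451, miR-486, miR-185, miR-144 in the serum to plasma ratio cannot change with the scaling, though miR-185 and miR-144 overlapped in their intervals.

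**Figure D5:**
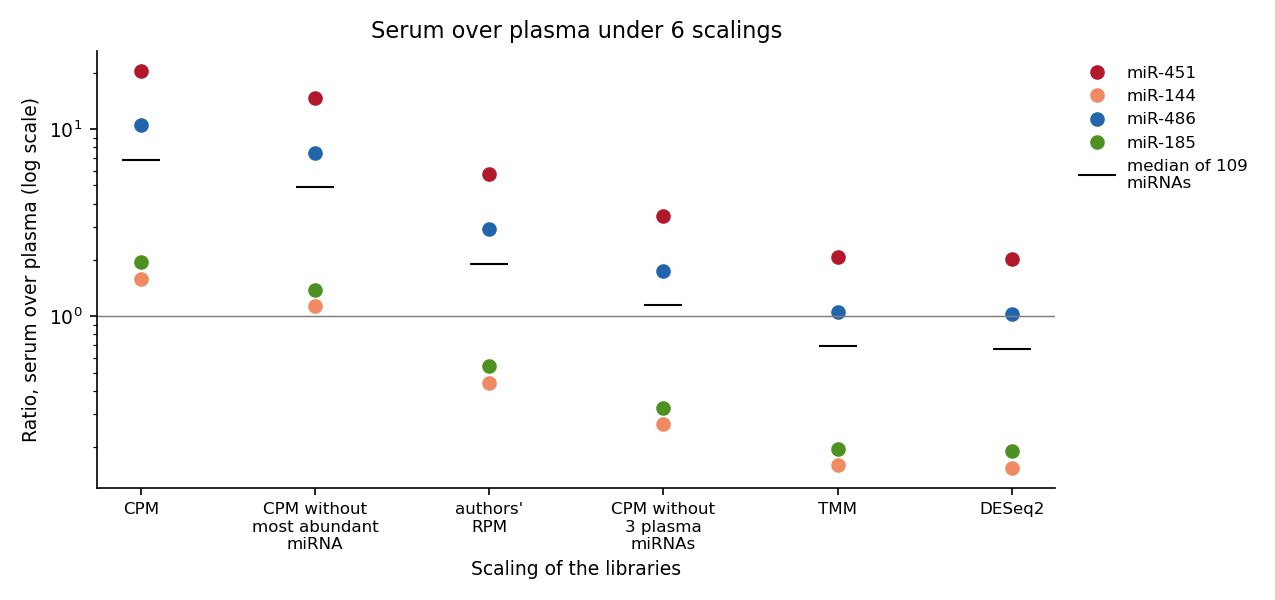
Ratio of serum over plasma (log scale) for each red cell miRNA under 6 scalings of the libraries, with the median of 109 miRNAs above 0 in both as a black bar. miR-451 went from 20.5 times by CPM to 2.01 times with DESeq2 size factors but stayed above 1, and miR-185 went from 1.94 to 0.19 times.

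Against bile and urine, miR-451 was over 2-fold higher in serum under all 6 scalings, and it met the count minimum in these fluids too. The ratios of serum to bile, semen and urine for miR-486, and to semen for miR-451, were also over 2-fold throughout. These ratios met the count minimum through serum alone, and that to urine rests on a listed 0, so their direction was not read as a test of the scaling. Those of miR-451 to semen and of miR-486 to urine are lower bounds, with a listed 0 taken as 10 counts. The smallest ratio to bile was that on the authors' RPM for both miRNAs, 5.798 for miR-451 and 123 for miR-486. miR-185 lost its 2-fold difference to bile with TMM, at 1.76 times, and was level on the authors' RPM, at 0.946 times. These scalings also moved the counts over all miRNAs: on the authors' RPM 43 were 2-fold higher in serum and 62 in bile, in place of 74 and 39, and 46 were higher in serum and 71 in semen, in place of 72 and 36. With TMM the split was 56 to 49 against bile and 62 to 50 against semen. Against urine, 98 were higher in serum and 3 in urine on the authors' RPM, in place of 40 and 14, and 32 and 21 with DESeq2 size factors.

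Urine depth limits what its listed zeros say. With the plasma share of miR-486 a library of 26522 counts would hold 43.9 counts, and with the serum share 458. For miR-185 it would hold 114 counts at the serum share, 58.9 at that of plasma and 34 at that of bile, but 9.41 at that of semen, which the tables would not list. Taking the 124 counts of miR-451 and the ratios of bile, miR-185 would be at 38.6 counts and miR-486 at 1.19. With the ratios of serum, miR-486 would be at 25.3 counts and miR-185 at 6.29. With the ratios of plasma they would be at 49.6 counts of miR-486 and 66.5 of miR-185. The listed 0 of miR-486 thus lay under the serum and plasma ratios, and that of miR-185 under the plasma and bile ratios.

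Other miRNAs known from red cells or from erythroid differentiation were read from a list of 13 names, of which 10 were listed, as 11 mature forms. They did not move as a group. In serum 5 of the 11 had their highest CPM (miR-92a, miR-16, miR-182, miR-15b and miR-15a), 45.5%, beside 37.1% of all 237 miRNAs with at least 10 counts in a library. miR-15b, at 178 CPM in serum, and miR-15a, at 23.2 CPM, lay under the 377 CPM that 10 counts make in urine, so their order against urine is not resolved. Both arms of miR-22 were highest in plasma, miR-183 and miR-130a in bile, miR-96-5p in semen and miR-363 in urine. With TMM or DESeq2 size factors 4 of the 11 were highest in serum, beside 20.7% and 19.8% of all 237, and the summed level of the list was then higher in plasma, with serum at 0.752 and 0.729 times plasma.

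miR-92a, of the cluster that also gives miR-17 and is abundant in reticulocytes, was the most abundant of the list in serum. It had 15442 counts in serum, 3474 in bile, 2932 in semen, 630 in plasma and 51 in urine, and its serum level was 59.8 times plasma (55.2 to 64.8) and 15.7 times bile (15.1 to 16.3). miR-16, a cell cycle regulator that red cells hold in large amounts, had 1221 counts in serum, 525 in bile, 208 in semen, 42 in plasma and 0 in urine. Its serum level was 70.9 times plasma (52.1 to 98.9) and 8.22 times bile (7.42 to 9.13). miR-182, made with miR-96 and miR-183 in one transcript, was 135 times plasma in serum (104 to 177) but only 1.97 times semen (1.89 to 2.05). For 5 of the 7 list members with at least 100 counts in either fluid serum was 2-fold above plasma and for 2, the arms of miR-22, plasma was 2-fold above serum. Of all 119 miRNAs, 73.1% were 2-fold higher in serum. The median log2 ratio of the 7 was 3.38, beside 2.76 over all 119. However, miR-16, miR-182 and miR-183 met the minimum through serum alone and therefore had to be higher in serum than in plasma. Neither the count nor the median of the 7 is thus read as a result about the list. miR-22-3p had 5733 counts in plasma and 1003 in serum, 2.34 times higher in plasma. With TMM miR-92a was still 6.05 times, miR-16 7.18 times and miR-182 13.6 times higher in serum than in plasma, against 2.07 times for miR-451.

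The presence of other blood cell miRNAs was measured beside the members. The leukocyte list (5 of 6 names listed, 6 forms measured) had its highest listed CPM in serum for 6 of 6, beside 37.1% of all 237 miRNAs, and took 2.15% there, 0.361% in plasma, 0.148% in bile, 0.0566% in urine and 0.00643% in semen. miR-146a-5p, with 5315 counts, and miR-342, with 2970, led it in serum. The platelet list (3 of 5 names, 5 forms) had its highest listed CPM in serum for 5 of 5, with 2.87% there and 0.240% to 0.596% elsewhere, led by miR-24-3p with 8203 counts and miR-191 with 3095. The order against urine is not resolved for miR-155-5p, miR-24-1-5p and miR-126-5p, at 220, 243 and 92.99 CPM in serum, which lie under the 377 CPM of 10 urine counts. With TMM or DESeq2 size factors 3 of the 6 leukocyte forms and 2 of the 5 platelet forms were highest in serum. Of all 237 miRNAs, 20.7% and 19.8% were highest there with these scalings. The summed leukocyte list turned to 0.601 and 0.583 times plasma, whereas the summed platelet list stayed above plasma, at 1.21 and 1.17 times. Their part in the serum level of the red cell miRNAs was not tested, and more vesicles from red cells and more miRNA per vesicle cannot be told apart in such libraries. Muscle, where miR-486 is also made, was read from 6 measured forms, which took 1.08% of urine, 0.328% of bile, 0.256% of serum, 0.0688% of plasma and 0.0208% of semen. miR-1 had 4827 counts in bile and 313 in serum, so it made up most of the bile sum. miR-133a-3p, miR-133b and miR-206, at 793, 471 and 543 CPM in serum, were higher there than in bile, at 0, 0 and 103 CPM. The part of muscle in the level of miR-486 was not tested.

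The miRNAs with the profile most like each member were found by the Euclidean distance of log2 CPM over the 5 fluids, each profile centred on its mean and zeros taken at 10 counts, among 166 others. Nearest to miR-486 were miR-215 (distance 2.45), miR-133a-3p (4.07) and miR-142-3p (4.42). miR-215, which is close in sequence to miR-192 so that its reads are uncertain, had 13939 counts in serum, 3091 in plasma and 476 in bile and was listed at 0 in semen and urine. It was also nearest to miR-451 (3.49), followed by miR-142-5p (5.05) and miR-486 itself (5.27). Nearest to miR-185 were miR-7134-3p (1.40), miR-27a (2.03) and miR-24-3p (2.23). miR-144 was nearest to miR-363 (1.81), miR-9858-5p (1.96) and miR-9860-5p (2.18), but its profile consists of zeros and counts up to 40, so these distances say little. miR-451 ranked 162 of 166 in likeness to miR-144, its transcript partner. At the same distance of 8.31, miR-144 ranked 37 of 166 in likeness to miR-451. Both ranks rest on the low counts of miR-144. The distances describe 5 libraries and are no test.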

How the data were processed

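Small RNA of exosomes from 5 fluids was sequenced by the authors, with 1 library each. Per the file headers, the authors deposited a total count per mature miRNA name and a normalized value. The second is in RPM, which the deposited counts bear out: counts divided by RPM give 1 library total per file. Per the submitters' processing notes, bcl2fastq 2.17 and build Sscrofa10.2 were used. The read mapper and how reads of similar miRNAs were shared out were not stated in the labels, and the protocol names no molecular identifiers. The total behind the deposited RPM was 7207788 to 10801967 reads.

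Shares, CPM, ratios and intervals were computed in Python 3.11.15 with scipy 1.17.1, and tested on simulated data. Alternatives were scalings by edgeR 4.0.16 (TMM) and DESeq2 1.42.0 (size factors), the deposited RPM, leaving the most abundant miRNA out of each total, 3 counts for a listed 0, and other count minimums. Totals without the 3 leading plasma miRNAs were added after the data were seen. A listed 0 was taken as 10 counts, the lowest the files hold. No bound is given where the other library's level lies under it. The miRNAs named are the 4 members, the red cell list, miR-23a, the leading marker miRNAs and the 3 nearest profiles per member. The members and lists were chosen with earlier results of these data known. The library check names the leading miRNAs of plasma, chosen after their values were seen. Names outside the tables were not analysed here.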

Additional observations from a re-analysis of the deposited data

How the results depend on the processing

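Each fluid rests on 1 library, so no library could be left out and the variation between animals, collections and preparations is unknown. No paired analysis was possible because each fluid has 1 library and the result comes from no test. Ratios of counts within a library depend on no scaling. Summing all listed arms changed none of the 26 ratios between members, since each member is listed under 1 name. With a listed 0 taken as 3 counts, the bounds moved: miR-451 over miR-486 to 0.25 in semen and 41.3 in urine, miR-451 over miR-185 to 0.0037 in semen and 41.3 in urine, miR-451 over miR-144 to 41.3 in urine, miR-486 over miR-144 to 4.0 and miR-185 over miR-144 to 270.3 in semen, and miR-451 over miR-23a to 0.0078 in semen. The other 23 ratios have no 0 and stayed.

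The serum to plasma ratios moved with the scaling, except that of miR-144 without the most abundant miRNA, which stayed within its interval. For miR-451 (20.5) they were 2.07 with TMM, 2.01 with DESeq2 size factors, 14.7 without the most abundant miRNA, 5.72 on the authors' RPM, 3.43 without the 3 leading plasma miRNAs and 2.99 relative to the median. For miR-486 (10.4) they were 1.06, 1.03, 7.47, 2.92, 1.75 and 1.53 in the same order. For miR-185 (1.94) they were 0.196, 0.190, 1.39, 0.541, 0.325 and 0.283. For miR-144 (1.58) they were 0.160 with TMM, 0.156 with DESeq2, 0.442 on RPM and 0.265 without the 3 plasma miRNAs. Thus 1 of the 3 members tested, miR-451, in place of 2 was 2-fold higher in serum with TMM and with DESeq2 size factors. The same held with totals without the 3 plasma miRNAs and relative to the median. Of all 119 miRNAs, 28.6% were 2-fold higher in serum with TMM and with DESeq2 size factors, in place of 73.1%. Without the 3 plasma miRNAs it was 38.7%, so the members lay near the share of all miRNAs. The serum to bile ratio of miR-185 turned to 0.946 on the authors' RPM.

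With at least 100 counts in a library, 3 of 8 other red cell miRNAs were highest in serum, since fewer were counted. This is near the share of all miRNAs past that minimum, 61 of 166 or 36.7%. With at least 10 counts in either library, 60.7% of 211 miRNAs were 2-fold higher in serum than in semen and 21.2% of 189 than in urine. The nearest profiles depended on the zeros: with log2(CPM + 1) none of 3 (0) stayed for miR-451, miR-144 and miR-185 and 3 for miR-486, and without the urine library 1 stayed for miR-144 and 1 for miR-185, which were then nearest to each other.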

Other observations

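The other abundant red cell miRNAs, set against miR-23a in the same library, ordered the fluids differently from miR-451. miR-92a was 7.62 times miR-23a in semen (6.85 to 8.49), 6.26 times in bile (5.72 to 6.86), 4.25 times in urine (2.24 to 8.76), 2.62 times in serum (2.54 to 2.70) and 1.34 times in plasma (1.19 to 1.51). miR-16 was 0.21 times miR-23a in serum (0.19 to 0.22), 0.089 times in plasma (0.063 to 0.12), 0.54 times in semen (0.45 to 0.64) and 0.95 times in bile (0.84 to 1.07). Among the fluids that list them, both were lowest in plasma and above their serum ratio in semen, where miR-451 was listed at 0. miR-185 over miR-23a was 5.44 in plasma (4.93 to 6.01), 3.86 in bile (3.52 to 4.25), 2.11 in semen (1.86 to 2.38) and lowest in serum, 0.35 (0.33 to 0.36). Among listed counts, the ratio to miR-23a was highest in plasma for miR-486 and miR-185 and in bile for miR-16. For miR-92a the intervals of semen, bile and urine overlapped, and for miR-451 those of bile and urine, so the highest fluid is not resolved.

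Set against each other, miR-451 was 7.58 times miR-92a in plasma (6.97 to 8.25), 2.599 times in serum (2.55 to 2.65), 1.99 times in bile (1.91 to 2.07) and 2.43 times in urine (1.74 to 3.44), where the interval overlapped those of serum and bile. miR-451 over miR-16 was 32.9 in serum (31.0 to 34.8), 114 in plasma (84.0 to 158) and 13.1 in bile (12.0 to 14.4).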
